A study of Neurospora crassa with 12 samples.

Results

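Among the genes that code for enzymes of cellulose breakdown in the filamentous fungus *Neurospora crassa*, 5 belong to glycoside hydrolase families 6, 5 and 45: gh6-1 (NCU03996), gh6-2 (NCU09680), gh6-3 (NCU07190), gh5-1 (NCU00762) and gh45-1 (NCU05121). They were chosen by family and locus number, with earlier results of these data known, from the 9730 genes of the count table. Transcript levels were compared between the wild type (WT, the strain FGSC 2489) and Δclr-5, a single deletion strain from the stock collection that lacks clr-5 (NCU05383), which codes for a Zn2Cys6 transcription factor. Mycelium of each strain was grown first in glucose and then shifted to 1 of 3 media. The medium called Avicel or Avicel alone was Vogel's salts, which hold ammonium nitrate, with 2% Avicel, a microcrystalline cellulose. The others were nitrogen-free Vogel's salts with 2% Avicel and 50 mM of either histidine or leucine, which was then the sole source of nitrogen. Each of the 6 groups held 2 libraries from independent cultures. The sample labels give 8 h of induction for every group, while the study's methods give a shorter time.

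Cellulose is a chain of glucose units that fungi cut outside the cell, with enzymes of several kinds that act together. Cellobiohydrolases of family 6, such as the product of gh6-2, release cellobiose from the non-reducing ends of the chain, whereas endoglucanases of families 5 and 45 cut within it. In *N. crassa*, cellulase genes are low in glucose and are induced when cellulose is the carbon source, through the regulators CLR-1 and CLR-2, and the genes of families 6 and 5 are among those known to respond. The gene products of gh6-1 and gh6-3 are assigned here by family alone.

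The 5 genes are scattered over the genome. On the NC12 assembly of the reference strain OR74A, gh6-2 lies on chromosome V from 858215 to 859731 and gh6-3 on the same chromosome from 6293016 to 6295011, 5433 kb apart. The gene gh6-1 lies on chromosome VI from 2380994 to 2382414, and gh45-1 on the same chromosome from 3681542 to 3682601, 1299 kb away. The gene gh5-1 lies on chromosome I from 7271711 to 7273785. A tRNA gene, NCU15135, is annotated within the span of gh6-3. All 5 genes passed the filter on low counts, as did 8805 of the 9730.

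Libraries held 16797962 to 20381308 counts, with a median of 18400977. Levels are given as CPM, a gene's count scaled to the total count of its library and not to the length of the gene. The deleted gene, clr-5, had 27 to 63 counts in the Δclr-5 libraries and 301 to 1035 in the WT libraries. The strains also differed at the mating-type locus. The transcript of matA-1 was at 0 counts in all 6 Δclr-5 libraries and at 125 to 2049 counts in the WT libraries. Within these libraries the deletion thus cannot be told apart from other differences between the strains. The paper reports that a mutant given clr-5 back had secreted protein and enzyme activities near those of WT on Avicel. That strain is not among these libraries. The cultures are labelled as mycelium, but 7 marker genes of conidia and conidiophores (con-6, con-8, con-10, con-13, eas, fl and acon-3) were all above 0 in every group. Their summed level was 177 to 210 CPM in WT and 3268 to 35613 CPM in Δclr-5 on Avicel, 754 to 1089 against 70334 to 83509 CPM on histidine, and 508 to 542 against 1110 to 1679 CPM on leucine. In the 2 WT libraries on histidine the cellulase genes were far apart, and called values that rest on them are also given without each library.

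The cellulase genes gh6-2, gh6-3, gh5-1 and gh45-1 shared 1 order of group means, from WT on Avicel at the top, through Δclr-5 on Avicel, WT on leucine, WT on histidine and Δclr-5 on leucine, to Δclr-5 on histidine. The highest library of gh6-2 was 1001-fold above its lowest, at 37695 and 37.6 CPM. This range was 815-fold for gh6-3, 272-fold for gh5-1 and 114-fold for gh45-1. Neighbours in the order overlapped for gh6-2, gh45-1 and gh5-1 between WT on histidine and Δclr-5 on leucine. For gh5-1 they also overlapped between WT on leucine and WT on histidine, while no neighbouring groups of gh6-3 overlapped. The shares of all genes with this order or without overlap were not computed, so neither can be called particular to these genes. The gene gh6-1 stood apart: it held 6 to 58 counts per library, and its highest and lowest levels were 2.97 and 0.357 CPM. Per kb of annotated gene span, introns included, the level in WT on Avicel was 24767 CPM per kb for gh6-2, 11793 for gh6-3, 6371 for gh5-1, 1035 for gh45-1 and 0.615 for gh6-1. Together the 5 genes took 7.33% and 7.75% of all counts in the WT cultures on Avicel and 0.0135% and 0.0251% in the Δclr-5 cultures on histidine.

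**Figure D1:**
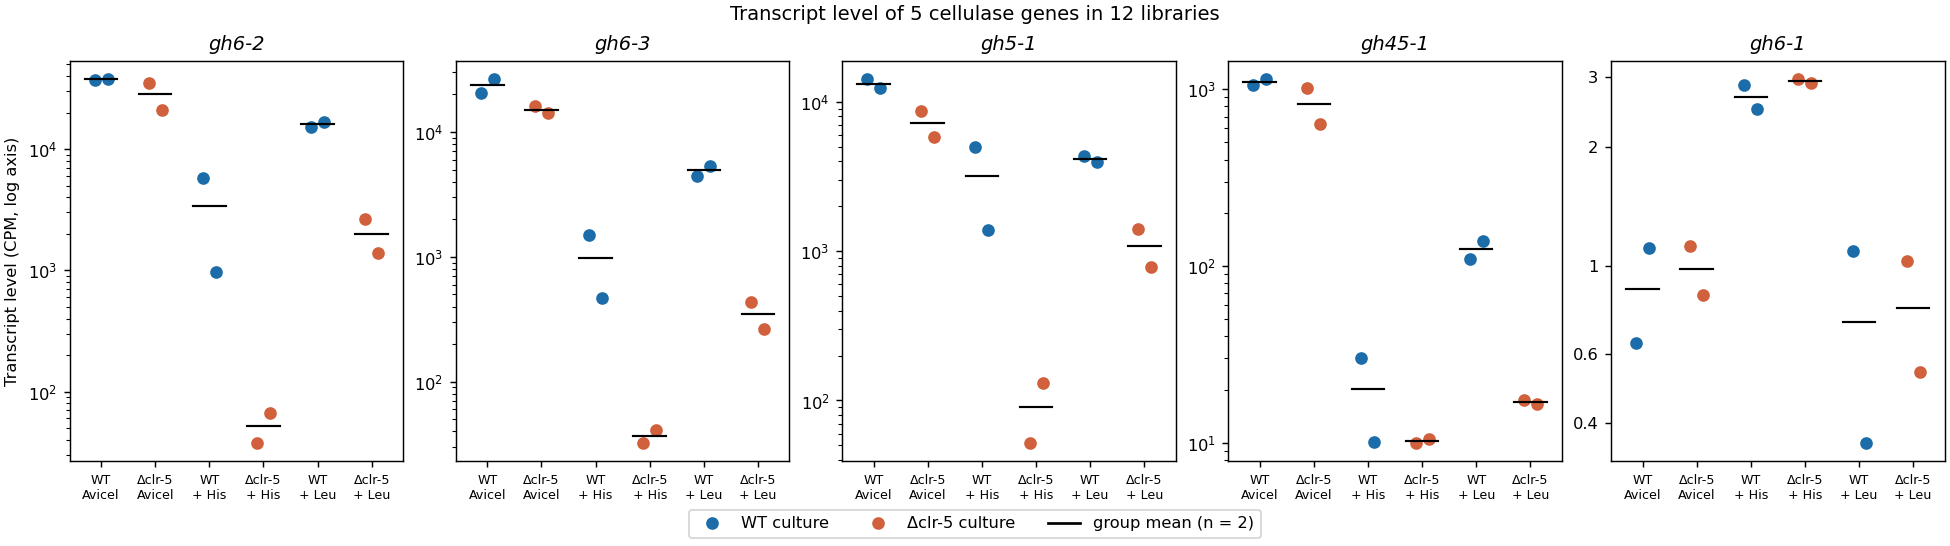
Transcript level (CPM, logarithmic axis) of each gene in the 12 libraries; points are cultures, blue for WT and orange for Δclr-5, and black lines are group means (n = 2). The genes gh6-2, gh6-3, gh5-1 and gh45-1 are highest in WT on Avicel and lowest in Δclr-5 on histidine, whereas gh6-1 lies between 0.357 and 2.97 CPM throughout and is highest on histidine in both strains.

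The first comparison asked whether these transcripts differed between the strains when cellulose was supplied with ammonium nitrate as the nitrogen source. On Avicel alone, none of the 5 genes was called different between the strains, a call being an adjusted p under 0.05 together with a log2 fold change of 0.5 or more in either direction. In edgeR 0 of the 5 genes was called, where 8.37% of all genes tested were called lower in Δclr-5 and 11.8% higher. Of the 5, 0 had an unadjusted p under 0.05, a level at which the share of all genes was not computed. The values of gh6-2 were 37449 and 37695 CPM in the WT cultures and 35406 and 21054 CPM in the Δclr-5 cultures, so that 1 mutant culture was close to the WT level and the other below it. Its log2 fold change was -0.60 (standard error (SE) 0.69, adjusted p = 0.574).

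The gene gh6-3 had 20680 and 26398 CPM in WT and 16151 and 14060 CPM in Δclr-5, and the log2 ratio in the fit was -0.85 (SE 0.47, adjusted p = 0.227). The endoglucanase gene gh5-1 had 14142 and 12300 CPM in WT against 8699 and 5767 CPM in Δclr-5, with a log2 fold change of -1.06 (SE 0.60, adjusted p = 0.235). The other endoglucanase gene, gh45-1, had 1056 and 1139 CPM in WT and 1015 and 635 CPM in Δclr-5, and the log2 ratio in the fit was -0.60 (SE 0.41, adjusted p = 0.332). For each of these 4 genes both mutant cultures were below both WT cultures, though the share of all genes without overlap was not computed. The difference was less than the test could separate from the spread, which was estimated over all 12 libraries. In each, culture 2 was the lower mutant culture. That culture also held more of the conidiation markers, 35613 CPM against 3268 in culture 1, and all 7 markers were called higher in Δclr-5. Their part in the cellulase values was not tested. In bulk RNA of this kind, fewer cells of a type and less RNA per cell cannot be told apart. The calls depended on the model: when DESeq2 was fitted to the 4 Avicel libraries alone, 2 genes were called lower, gh6-3 at -0.84 (adjusted p = 0.0359) and gh5-1 at -1.05 (adjusted p = 0.0163), beside 4.43% of all genes, whereas DESeq2 on all 12 libraries called 0 of the 5 lower, beside 9.93% of all genes.

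On Avicel with histidine, transcripts of gh6-2, gh6-3 and gh5-1 fell in Δclr-5 to small fractions of the WT level. These were 3 of the 5 genes, with 12.8% of all genes called lower, and 0 was called higher beside 8.27% of all genes. The median log2 fold change was -4.73 over the 5 genes and -0.03 over all genes tested. The gene gh6-2 had 5778 and 971 CPM in the WT cultures and 37.6 and 66.7 CPM in the Δclr-5 cultures. Its mean was 64.7-fold lower in Δclr-5, and the log2 fold change was -6.02 (SE 0.85, adjusted p = 0.000792). The WT cultures differed 5.95-fold from each other, but even the lower one was above both mutant cultures.

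The same held for the other family 6 gene with a high level: gh6-3 was at 1483 and 466 CPM in WT and at 32.4 and 41.2 CPM in Δclr-5, which is 26.5-fold lower in the mean (log2 fold change -4.73, SE 0.55, adjusted p = 0.00017). For gh5-1, 4960 and 1389 CPM in WT stood against 52.0 and 129.9 CPM in Δclr-5, a mean 34.9-fold lower (log2 fold change -5.13, SE 0.70, adjusted p = 0.000655). Without WT culture 1, the higher of the pair, the log2 fold changes were -4.23 for gh6-2, -3.68 for gh6-3 and -3.94 for gh5-1, without WT culture 2 they were -6.80, -5.34 and -5.77, and each gene was called whichever of the 4 libraries was left out. In an edgeR fit to these 4 libraries alone, which called 14% of all genes lower, only gh6-3 was called among the 5, with adjusted p = 0.0939 for gh6-2 and 0.08 for gh5-1.

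The gene gh45-1 was already low in WT on histidine, at 30.3 and 10.1 CPM, against 9.97 and 10.5 CPM in Δclr-5, and the groups overlapped. Its log2 fold change of -0.99 (SE 0.44, adjusted p = 0.14) rested on WT culture 1: it was 0.01 without that culture (adjusted p = 0.995) and -1.57 without WT culture 2 (adjusted p = 0.00825). The gene gh6-1 was at 2.87 and 2.50 CPM in WT and at 2.97 and 2.91 CPM in Δclr-5 (log2 fold change 0.12, SE 0.46, adjusted p = 0.883). The conidiation markers were again higher in both mutant cultures, by the sums given above, with 4 of 7 called higher and 0 lower, and their part in these folds was not tested.

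On Avicel with leucine, all the cellulase genes here except gh6-1 fell in Δclr-5. These were 4 of the 5 genes, beside 10.7% of all genes called lower, and 0 was called higher beside 8.77%. The median log2 fold change was -3.13 over the 5 genes and 0.03 over all genes. The gene gh6-2 had 15325 and 16601 CPM in WT and 2630 and 1394 CPM in Δclr-5, a mean 7.93-fold lower with a log2 fold change of -3.24 (SE 0.75, adjusted p = 0.0139). The gene gh6-3 had 4461 and 5377 CPM in WT and 433 and 267 CPM in Δclr-5, which is 14.1-fold lower (log2 fold change -4.06, SE 0.53, adjusted p = 0.000683). Here the WT cultures were close together, and for both genes all mutant values lay far below them.

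For gh45-1, 109.7 and 138.6 CPM in WT stood against 17.5 and 16.5 CPM in Δclr-5, a mean 7.29-fold lower with a log2 fold change of -3.13 (SE 0.46, adjusted p = 0.00169). The smallest of these changes was that of gh5-1, from 4316 and 3975 CPM to 1396 and 781 CPM, or 3.81-fold (log2 fold change -2.18, SE 0.62, adjusted p = 0.0327). The gene gh6-1 had 1.09 and 0.357 CPM in WT and 1.03 and 0.540 CPM in Δclr-5, which overlap (log2 fold change -0.14, SE 0.57, adjusted p = 0.891). The calls of gh6-3 and gh45-1 held without any 1 library, whereas that of gh5-1 was lost without any of the 4 (adjusted p = 0.0719 to 0.201), and that of gh6-2 without WT culture 2 (adjusted p = 0.0656) or Δclr-5 culture 2 (adjusted p = 0.113). Of the 7 conidiation markers 2 were called higher in Δclr-5 on leucine, and their part was not tested here either.

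**Figure D2:**
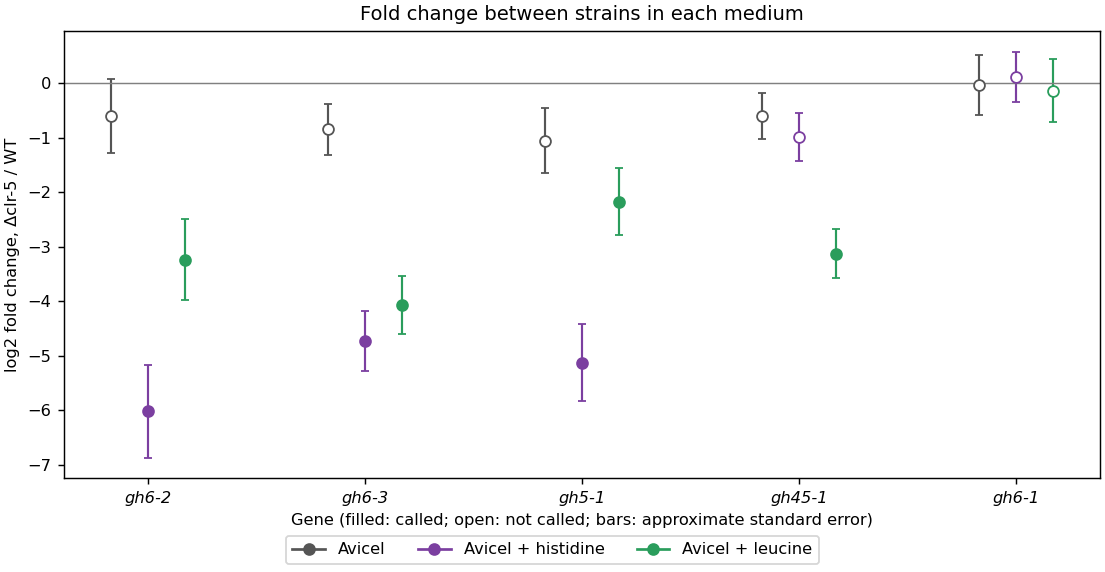
log2 fold change of Δclr-5 against WT for each gene on Avicel, Avicel + histidine and Avicel + leucine; points are edgeR estimates, bars are approximate standard errors, and filled points were called. On Avicel alone all points are open, gh6-2, gh6-3 and gh5-1 reach -6.02 to -4.73 on histidine, and gh45-1 is filled on leucine only.

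Whether the strain difference itself changed with the medium was tested as a difference of log2 fold changes. Between histidine and Avicel alone, the difference was -5.42 for gh6-2 (SE 1.03, adjusted p = 0.00834), -3.89 for gh6-3 (SE 0.69, adjusted p = 0.00509) and -4.07 for gh5-1 (SE 0.87, adjusted p = 0.0136). These 3 of 5 genes were called lower beside 9.03% of all genes, and 0 was called higher beside 5.32%. For gh45-1 it was -0.39 (SE 0.60, adjusted p = 0.711). Without WT histidine culture 1 these differences were -3.63, -2.83 and -2.89, and without culture 2 they were -6.20, -4.49 and -4.72, all still called. The call of gh6-3 held without any 1 of the 8 libraries. That of gh6-2 was lost without WT Avicel culture 1 (adjusted p = 0.0515) or Δclr-5 histidine culture 1 (adjusted p = 0.053), and that of gh5-1 without these or without WT Avicel culture 2 (adjusted p = 0.0531 to 0.0638).

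Between leucine and Avicel alone, the strain difference was larger for gh6-3 by -3.22 on the log2 scale (SE 0.68, adjusted p = 0.023) and for gh45-1 by -2.52 (SE 0.60, adjusted p = 0.0436). These 2 of 5 genes were called lower beside 3.69% of all genes, and 0 was called higher beside 1.85%. The differences of -2.64 for gh6-2 (adjusted p = 0.142) and -1.12 for gh5-1 (adjusted p = 0.462) did not pass in this fit. In DESeq2 on the 8 libraries alone gh6-2 was called at -2.67 (adjusted p = 1.05e-05), but not in edgeR on them (adjusted p = 0.0512). Both gh6-3 and gh45-1 were also called in DESeq2 on all 12 libraries (adjusted p = 1.06e-05 and 0.000459). Neither of these 2 edgeR calls was stable when single libraries were left out. That of gh6-3 was lost in 5 of 8 such fits (WT Avicel 1 or 2, WT leucine 1 or 2, or Δclr-5 leucine 2). That of gh45-1 was lost in all but the fit without Δclr-5 Avicel culture 2. The values in these fits were -3.66 to -2.88 for gh6-3 and -2.89 to -2.04 for gh45-1.

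When the histidine and leucine media were set directly against each other, the estimates for the endoglucanase genes had opposite signs, but neither passed the test. The strain difference was -2.95 log2 units for gh5-1, lower on histidine (SE 0.85, adjusted p = 0.0522), and 2.14 for gh45-1, lower on leucine (SE 0.62, adjusted p = 0.0525). In edgeR 0 of the 5 genes was called, where 6.54% of all genes were called lower and 4.88% higher. An unadjusted p under 0.05 was found for 3 of the 5, but the share of all genes at that level was not computed. In DESeq2 on all 12 libraries both passed, gh5-1 at adjusted p = 0.0218 beside 8.11% of all genes called lower, and gh45-1 at adjusted p = 0.00288 beside 6.75% called higher. The values of gh6-2 (-2.78, adjusted p = 0.106) and gh6-3 (-0.67, adjusted p = 0.589) did not pass with all 12 libraries. Here again the WT histidine cultures mattered. Without culture 1, gh45-1 was called at 3.13 (adjusted p = 0.00332), and without culture 2, gh6-2 at -3.56 (adjusted p = 0.011) and gh5-1 at -3.60 (adjusted p = 0.0153). Without Δclr-5 histidine culture 2, gh5-1 was called at -3.77 (adjusted p = 0.0477).

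The media were also compared within each strain, which asked how levels differed between nitrogen sources when the strain was the same. These comparisons share libraries with those between strains. In WT on histidine against Avicel alone, 4 of the 5 genes were called lower and 0 higher, beside 24.4% of all genes called lower and 27.7% higher. The fall was largest for gh45-1, from a mean of 1097 ± 58.6 (SD, n = 2) to 20.2 ± 14.3 CPM (log2 fold change -6.32, SE 0.52, adjusted p = 5.48e-06), and smallest for gh5-1, from 13221 ± 1302 to 3174 ± 2525 CPM (-2.62, SE 0.63, adjusted p = 0.00489). Between them were gh6-3 at -5.16 (adjusted p = 1.99e-05) and gh6-2 at -4.04 (adjusted p = 0.00127). Each of these 4 calls held without any 1 library. Without WT histidine culture 1 the values were -7.32 for gh45-1, -6.22 for gh6-3, -5.83 for gh6-2 and -3.80 for gh5-1, and without culture 2 they were -5.74, -4.55, -3.26 and -1.97. Of the 7 conidiation markers 1 was called lower and 2 higher on histidine, and their part was not tested.

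On leucine against Avicel alone in WT, 3 of the 5 genes were called lower, beside 19.6% of all genes, and 0 higher, beside 22.2%. The gene gh45-1 fell from 1097 ± 58.6 to 124 ± 20.4 CPM (log2 fold change -3.31, SE 0.45, adjusted p = 0.000263), and gh6-3 from 23539 ± 4043 to 4919 ± 648 CPM (-2.43, SE 0.49, adjusted p = 0.00247). The change of gh5-1, -1.84 (adjusted p = 0.0317), lost its call without any 1 of the 4 libraries. The gene gh6-2 went from 37572 ± 174 to 15963 ± 903 CPM, with cultures tightly grouped and no overlap, but its log2 fold change of -1.40 missed the threshold with the spread estimated over all 12 libraries (SE 0.70, adjusted p = 0.126). With the 4 libraries alone it was called (adjusted p = 4.14e-06 in edgeR). On leucine too 1 conidiation marker was called lower and 2 higher in WT, and their part was not tested.

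In Δclr-5, histidine against Avicel alone gave the largest changes of the series for the same 4 genes. The mean of gh6-2 fell 541-fold, from 28230 ± 10148 to 52.2 ± 20.5 CPM (log2 fold change -9.46, SE 0.99, adjusted p = 2.04e-05), and that of gh6-3 411-fold, from 15105 ± 1478 to 36.8 ± 6.21 CPM (-9.04, SE 0.67, adjusted p = 1.24e-06). The endoglucanase genes fell by similar amounts, gh5-1 79.5-fold (-6.68, adjusted p = 3.66e-05) and gh45-1 80.6-fold (-6.71, adjusted p = 4.03e-06). The called genes were 4 of the 5, all lower, beside 27.6% of all genes called lower and 27.2% higher. On leucine these were again called lower, beside 17.8% of all genes (19.5% higher), at -5.83 for gh45-1 (adjusted p = 2.02e-05), -5.64 for gh6-3 (adjusted p = 3.01e-05), -4.04 for gh6-2 (adjusted p = 0.00216) and -2.95 for gh5-1 (adjusted p = 0.00422). All 8 of these calls in Δclr-5 held without any 1 library. The conidiation markers moved with the medium in Δclr-5 as well: their sum was 3268 to 35613 CPM on Avicel alone, 70334 to 83509 CPM on histidine and 1110 to 1679 CPM on leucine. On histidine the sum and the single markers went opposite ways: 3 of the 7 were called lower and 0 higher, with a median log2 fold change of -1.30. On leucine 5 were called lower and 1 higher. The part of these markers in the cellulase values was not tested.

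**Figure D3:**
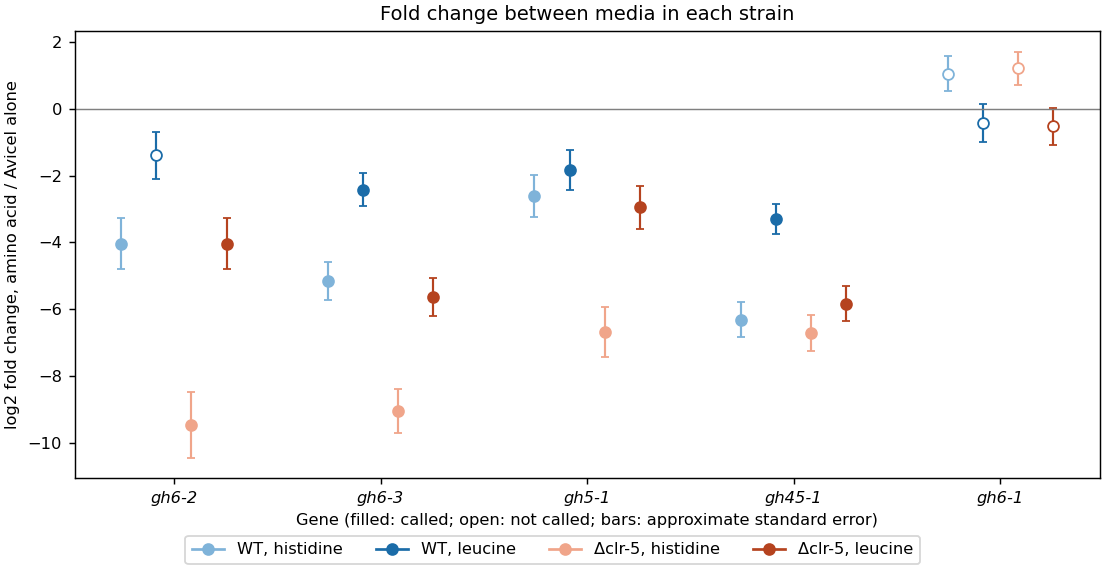
log2 fold change of Avicel + histidine and of Avicel + leucine against Avicel alone, within WT (blue) and within Δclr-5 (orange), for each gene; points are edgeR estimates, bars are approximate standard errors, and filled points were called. The lowest points are gh6-2 and gh6-3 in Δclr-5 on histidine, at -9.46 and -9.04, and gh6-1 has only open points.

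Histidine was lower than leucine for gh6-2, gh6-3 and gh45-1 in WT, with log2 fold changes of -2.64 (adjusted p = 0.011), -2.73 (adjusted p = 0.000889) and -3.01 (adjusted p = 0.000331), beside 26% of all genes called lower. Without WT histidine culture 1 these were -4.43, -3.79 and -4.01, and without culture 2 they were -1.86, -2.13 and -2.43, all still called, but in an edgeR fit to the 4 libraries alone gh6-2 lost its call (adjusted p = 0.0919). The value for gh5-1 was -0.78 (adjusted p = 0.293), and -1.97 without WT histidine culture 1 (adjusted p = 0.0252). In Δclr-5 the genes lower on histidine than on leucine were gh6-2 at -5.42 (adjusted p = 0.000312), gh5-1 at -3.73 (adjusted p = 0.000797) and gh6-3 at -3.40 (adjusted p = 0.000236), beside 29.4% of all genes. There gh45-1 was at 9.97 and 10.5 CPM on histidine and 17.5 and 16.5 CPM on leucine, without overlap (log2 fold change -0.88, adjusted p = 0.115). It was called only in fits to those 4 libraries (adjusted p = 0.00115 in edgeR and 0.000281 in DESeq2). Of the 7 conidiation markers, 2 were called lower and 1 higher on histidine than on leucine in WT. In Δclr-5 2 were called lower and 3 higher, and their part in these values was not tested.

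The gene gh6-1 was the only member that was higher on histidine. It was higher there than on leucine in WT (log2 fold change 1.48, SE 0.52, adjusted p = 0.0336) and in Δclr-5 (1.74, SE 0.51, adjusted p = 0.0132), beside 23.7% and 23.6% of all genes called higher. The cultures did not overlap in either strain, yet a level of 2.97 CPM or less leaves few counts, and both calls depended on single libraries. In WT the call was lost without histidine culture 1 (adjusted p = 0.114), histidine culture 2 (adjusted p = 0.073) or leucine culture 2 (adjusted p = 0.225), and in Δclr-5 without histidine culture 1 (adjusted p = 0.0516) or leucine culture 2 (adjusted p = 0.108). Against Avicel alone it was at 1.05 in WT (adjusted p = 0.103) and 1.21 in Δclr-5 (adjusted p = 0.0568) on histidine. With library size in place of TMM scaling these were called, at 1.61 and 1.57, but that scaling also moved the median of all genes to 0.63 and 0.38.

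Counts of the members relative to gh6-2 within a library are free of scaling between libraries, and they showed that the genes did not move in proportion. On Avicel alone, gh45-1 had 0.0282 and 0.0302 counts per count of gh6-2 in WT and 0.0287 and 0.0302 in Δclr-5, which overlap. For gh5-1 the ratio was 0.378 and 0.326 in WT and 0.246 and 0.274 in Δclr-5, which do not. On histidine the ratio of gh5-1 to gh6-2 was 0.858 and 1.43 in WT and 1.38 and 1.95 in Δclr-5, so that in 3 of these 4 cultures it had the more counts of the pair. No test was run on these ratios, which are a description.

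The largest spread of ratios was that of gh45-1. It was 0.00525 and 0.0104 in WT and 0.265 and 0.157 in Δclr-5 on histidine, as gh6-2 was far lower in the mutant while gh45-1 was near 10 CPM in 3 of these 4 cultures. On leucine it was 0.00716 and 0.00835 in WT and 0.00666 and 0.0119 in Δclr-5, which overlap. The ratio of gh6-3 to gh6-2 was lowest in Δclr-5 on leucine, at 0.165 and 0.191, against 0.291 and 0.324 in WT on leucine and 0.456 to 0.700 on Avicel in both strains. On leucine the ratio of gh5-1 went the other way, from 0.282 and 0.239 in WT to 0.531 and 0.560 in Δclr-5. As shares of the counts of the 5 genes together, gh6-2 held 48.6% to 63.6% in every culture on Avicel or leucine, and 26.6% to 47.2% on histidine.

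**Figure D4:**
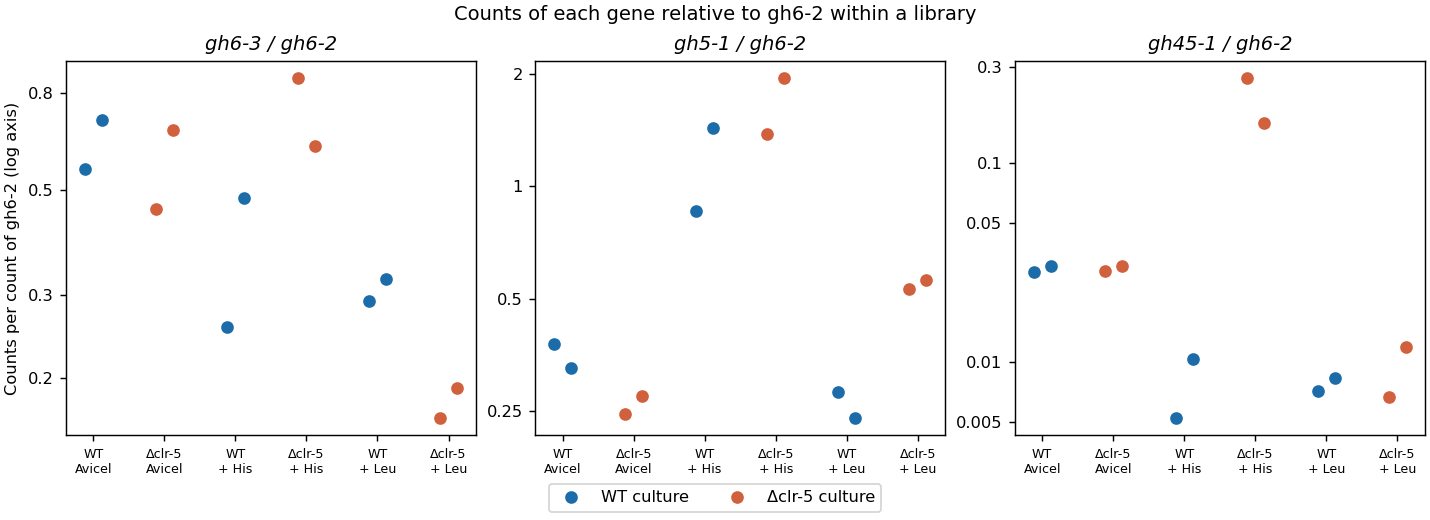
Counts of gh6-3, gh5-1 and gh45-1 per count of gh6-2 within each library (logarithmic axes); points are cultures, blue for WT and orange for Δclr-5. The ratio of gh5-1 is above 0.8 in all 4 histidine cultures and below 0.6 in the other 8, and that of gh45-1 is highest in Δclr-5 on histidine, at 0.157 and 0.265.

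Genes that act with these enzymes were counted from lists chosen by locus. Of 18 other cellulase genes tested, cellobiohydrolases and endoglucanases of family 7 and the lytic polysaccharide monooxygenases of family AA9, which cut cellulose by oxidation, 3 were called lower in Δclr-5 on Avicel, 12 on histidine and 12 on leucine, and 0 were higher in any medium. Over all genes tested, 8.37% were called lower on Avicel, 12.8% on histidine and 10.7% on leucine. The shares called higher were 11.8%, 8.27% and 8.77%, and all these shares are the background for each of the lists. The median log2 fold changes of the 18 genes were -0.99, -3.04 and -1.79. When single libraries were left out, the count on Avicel was 7 without Δclr-5 culture 1 and 2 in the other fits, that on leucine was 3 without Δclr-5 culture 2 and 7 in the other fits, and that on histidine was 11 in each. On Avicel the genes called lower were gh7-2 at -1.53 (adjusted p = 0.00719), gh7-4 at -1.30 (adjusted p = 0.0135) and gh61-2 at -1.01 (adjusted p = 0.0461), of which only gh7-2 was called whichever library was left out. The furthest on histidine were the AA9 genes gh61-4 at -6.75, gh61-3 at -5.92 and gh61-5 at -5.91, and on leucine NCU02344 at -4.64, gh61-4 at -3.47 and gh61-7 at -3.08.

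Cellobiose is handled by cellobiose dehydrogenases and β-glucosidases, and of their 5 listed genes 0 were called on Avicel in either direction. On histidine 3 were lower, cdh-1 at -4.68, gh1-1 at -3.03 and gh3-4 at -1.76, of which only gh1-1 was called whichever library was left out. On leucine the same 3 were lower, at -3.57, -1.58 and -1.19, and cdh-2 was higher at 0.59, but none of the 4 kept its call in every fit with a library left out. Both cellodextrin transporter genes, which take up the products of cellulose breakdown, were lower in Δclr-5 on histidine, cdt-1 at -2.59 (adjusted p = 0.000128) and cdt-2 at -1.04 (adjusted p = 0.0119), and 0 were called in the other media. Without WT or Δclr-5 histidine cultures in turn, cdt-2 lost its call in 3 of 4 fits.

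Among 6 regulators of cellulase genes, 2 were lower in Δclr-5 on histidine, 2 on leucine, and 1 was higher on Avicel, beside 11.8% of all genes called higher there. On histidine the activator gene clr-2 was at a mean of 143 CPM in WT and 12.6 CPM in Δclr-5 (log2 fold change -3.51, adjusted p = 0.00149), with -4.03 to -2.68 when single libraries were left out. The other gene lower there was vib-1 at -0.93 (adjusted p = 0.0364), whose call was lost in 3 of 4 such fits. On leucine, clr-1 was at -1.26 (adjusted p = 0.0104) and vib-1 at -0.90 (adjusted p = 0.0447), and both calls were lost without any 1 library. The gene higher on Avicel was cre-1, which codes for the carbon catabolite repressor, at 1.36 (adjusted p = 0.0122), and that call was lost without WT Avicel culture 1. On Avicel 0 of the regulators was called lower with all libraries, and 4 were without Δclr-5 Avicel culture 1.

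The genes most like each member across the 12 libraries were found by Pearson correlation of log2 CPM among 6834 other genes (6835 for gh6-1). These values share the 6 groups and the depth of the libraries, and they are a description. For gh6-2 they were gh61-7 (r = 0.996), cbh-1, the main family 7 cellobiohydrolase gene (0.994), and gh61-3 (0.994), and for gh5-1 they were gh61-5 (0.993), gh61-1 (0.993) and gh61-3 (0.991). For gh6-3 they were NCU06607 (0.996), NCU09764 (0.992) and NCU09524 (0.990), and for gh45-1 they were NCU07326 (0.992), NCU02344 (0.991) and NCU05855 (0.988). Between members, r was 0.984 for gh6-2 with gh5-1, 0.977 for gh6-2 with gh6-3 and 0.841 for gh5-1 with gh45-1. The gene gh6-1 had r of -0.53 to -0.39 with the other members, and its nearest genes were NCU05664 (0.907), NCU02666 (0.905) and NCU06821 (0.904).

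The AA9 gene NCU02344 was the listed cellulase gene most like gh45-1, with the same order of group means. It was at 101 and 91.4 CPM in WT and 4.56 and 4.70 CPM in Δclr-5 on leucine, and at 6.12 and 3.95 CPM against 2.20 and 2.45 CPM on histidine. As for gh45-1, the WT level on histidine was thus low before any difference between strains.

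Genes next to the members on the chromosome were examined for the strain comparisons. Neighbours were taken by start position, which gave 10 genes. For 1 side of gh6-3 this was the tRNA gene NCU15135, which lies within gh6-3 and was not tested. The next gene beyond gh6-3 on that side was thus not examined. Of the 9 genes tested, 2 were called lower in Δclr-5 on Avicel, 2 on histidine and 1 on leucine, while 1 was called higher on histidine. Over all genes the shares called lower were 8.37%, 12.8% and 10.7%, and 8.27% were called higher on histidine. The largest change was that of NCU00763, 272 bp from gh5-1, which was at 141.8 and 43.4 CPM in WT and 5.47 and 6.73 CPM in Δclr-5 on histidine (log2 fold change -3.93, adjusted p = 0.000711). It was chosen after its values were seen. Next to gh6-2, NCU09681 was at -0.66 on Avicel (adjusted p = 0.0378) and -1.40 on leucine (adjusted p = 0.00125). The strand setting of the counting is not given in the sources used here, so that reads of overlapping transcripts of neighbours cannot be told apart.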

How the data were processed

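Raw counts per gene of the 12 libraries were deposited in 1 table. The submitters' notes name TopHat2 2.0.8b and HTSeq 0.13.5, while the study's methods give another release of TopHat and no HTSeq version. By those methods the authors aligned paired-end Illumina reads to *N. crassa* OR74A and counted reads that mapped uniquely. The strand setting is not given in the sources used here.

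Analysis was in R 4.3.3 with edgeR 4.0.16, whose filterByExpr kept 8805 of 9730 genes and removed 925. Counts were scaled by TMM (factors 0.7797 to 1.193), and a robust quasi-likelihood model of 6 group means was fitted to all 12 libraries, with 6 residual degrees of freedom (common BCV, the coefficient of variation between cultures, 0.174). Each adjusted p in the text is from the quasi-likelihood F test of this model, unless DESeq2 (1.42.0) or another fit is named. Benjamini-Hochberg adjustment was over 8805 genes within each of 12 comparisons. Alternative fits were adjusted over the genes that each of them tested, which were 8558 in the edgeR fit to the 4 histidine libraries alone. Calls needed an adjusted p under 0.05 and a log2 fold change of 0.5 or more either way, the study's thresholds. Approximate standard errors were taken as the size of the log2 fold change over the root of F. CPM used the total counts and are not TMM scaled, while fold changes are, and fold values of means are ratios of mean CPM. With 2 cultures a group, p-values rest on a spread shared by all groups.

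Loci were matched to the RefSeq annotation of NC12 (9729 of 9730). Likeness used log2 CPM with a prior count of 2 and a mean of at least 3. Text names the 5 genes, clr-5, the conidiation markers, the 3 genes most like each member, and up to 3 called genes per list, comparison and direction by size. The genes matA-1, NCU00763, NCU09681 and NCU15135 were named outside this rule. Members and lists were chosen with earlier results of these data known. Scripts were tested on simulated data. Alternatives were DESeq2 on all libraries or on those of the comparison, edgeR on those alone, RLE and library size scaling, no filter, the adjusted p alone, a block for the replicate number, and fits without 1 library at a time.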

Additional observations from a re-analysis of the deposited data

Results flagged for a closer look

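With all 12 libraries, the strain difference of 4 genes passed a test of its difference between media. The log2 fold change of Δclr-5 against WT was lower on histidine than on Avicel alone by -5.42 for gh6-2, -3.89 for gh6-3 and -4.07 for gh5-1. It was lower on leucine than on Avicel alone by -3.22 for gh6-3 and by -2.52 for gh45-1. Among fits that left out 1 library, the call of gh6-3 on histidine held in each and those of gh6-2 and gh5-1 were lost in 2 and 3 of 8, with values of -6.20 to -3.63 and -4.89 to -2.89. On leucine the call of gh6-3 was lost in 5 of 8 and that of gh45-1 in 7 of 8. The Avicel libraries enter both sets of differences, so the sets are not independent.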

How the results depend on the processing

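Most member calls kept their direction and side of the threshold. Among counts of genes called, DESeq2 on the libraries of the comparison alone gave 2 lower on Avicel between strains, and edgeR on those alone gave 1 lower on histidine. Library size scaling gave 1 higher on histidine against Avicel in WT and 1 in Δclr-5. For the strain difference on histidine minus leucine, DESeq2 gave 1 lower and 1 higher on all 12 libraries and on 8, and library size gave 1 lower. Whether the culture numbers pair the samples is not given in the labels. Deviations of same-numbered cultures correlated at -0.24 to 0.37, over 0.1 in 2 of 15 pairs of groups. With 1 difference per group these values cannot decide it. With the replicate block, 1 gene was higher in that last comparison (gh45-1, adjusted p = 0.0484).

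Leaving out single libraries, the count of genes lower on leucine between strains was 2 to 3. It was 1 to 3 for the strain difference on histidine minus Avicel, 0 to 2 for leucine minus Avicel, and 0 to 2 lower and 0 to 1 higher for histidine minus leucine. The count higher on histidine than leucine was 0 to 1 in WT and 0 to 1 in Δclr-5. Some uncalled values changed sign in these fits. For gh6-1 the ranges were -0.45 to 0.44 on Avicel and -0.73 to 0.85 on leucine between strains, and -1.46 to 0.13 for leucine against Avicel in WT. For the strain difference of gh6-1 they were -0.31 to 0.58 on histidine minus Avicel, -0.69 to 0.91 on leucine minus Avicel and -0.72 to 0.85 on histidine minus leucine. For gh45-1 they were -1.57 to 0.0065 on histidine between strains and -0.97 to 0.61 on histidine minus Avicel, and for gh6-3 -1.28 to 0.39 on histidine minus leucine. Under library size scaling gh6-1 was at 0.17 on Avicel, 0.11 on leucine and -0.041 on histidine minus Avicel. The cause was not tested. With 6 to 58 counts, small differences of gh6-1 were not detectable at this depth.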
